A study of Mus musculus with 12 samples.

Results

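Genes that depend on the histone variant H2A.Z in resting muscle were sought by comparing 3 double-knockout (dKO) with 3 control (WT) libraries of innervated tibialis anterior, the muscle at the front of the lower leg, 6 of the 12 libraries of the study. All mice were 7-week-old C57BL/6 animals that carried floxed alleles of both H2A.Z genes, H2afz (H2A-Z.1) and H2afv (H2A-Z.2). The WT mice had no Cre, and the dKO mice also carried HSA-Cre, a Cre recombinase whose skeletal actin promoter works in muscle fibres and leaves the alleles of other cells of the muscle unrecombined. An effect of the Cre itself therefore cannot be told apart from that of H2A.Z loss in this comparison. The innervated muscle came from the unoperated leg 48 h after the sciatic nerve of the left leg had been cut, so the leg studied was at rest, in animals that had undergone surgery. The denervated legs (3 WT and 3 dKO libraries) serve here only to estimate the spread between libraries and for values side by side. The innervated libraries held 55668606 to 81655612 counts. Library dKO_innervated 1 stood apart in that its signal leaned away from GC-rich genes (correlation of its deviation with GC content −0.229, against 0.0364 to 0.150 in the other 5), and without it and WT_denervated 2, which leaned the same way, 50 genes were called. Of 31057 genes in the table, 17201 had enough counts to be tested. Of these, 79 passed an adjusted p of 0.05 by edgeR's quasi-likelihood test, 25 higher and 54 lower in dKO. These shares were 0.459% of the tested genes in all, 0.145% higher and 0.314% lower, and 1814 genes had an unadjusted p below the same value.

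DNA is wrapped around histones in nucleosomes, and H2A.Z replaces the ordinary H2A in those that flank the start sites of active and poised genes, at enhancers and near centromeres. It is written in by the SRCAP and p400/TIP60 complexes, taken out by ANP32E and INO80, and linked to transcription, DNA repair and replication. Unlike ordinary H2A, which is made when DNA is copied, it is made at all times, so it can enter the chromatin of cells that no longer divide, such as muscle fibres. Levels are given as counts scaled to a common library size with TMM (CPM). A change is the log2 ratio of dKO over WT with its standard error (SE), and n = 3 libraries per group throughout. "Rose" and "fell" are used only of genes that passed, with p-values adjusted by Benjamini-Hochberg over all 17201 genes.

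The targeted genes were first compared per length, since H2afv and H2afz transcripts differ in size. On the authors' length-scaled signal (normalized counts per kb of gene), WT muscle held 985 ± 144 units of H2afv and 1168 ± 204 of H2afz, and dKO muscle 252 ± 24.3 and 727 ± 137 (mean ± SD). The remaining H2A.Z transcripts of dKO muscle were therefore mostly of H2afz on that scale, where WT held similar amounts of both. H2afv stood at 24, 23.9 and 18.5 CPM in WT and 5.06, 5.89 and 6.06 CPM in dKO, and it fell to 25.6% of WT (log2 ratio −1.96, SE 0.12, edgeR adjusted p = 8.89e-06). H2afz stood at 13.9, 10.9 and 15.6 CPM in WT and 8.5, 6.74 and 9.93 CPM in dKO, a value of −0.69 with a 95% interval of −1.09 to −0.28 that did not pass (edgeR adjusted p = 0.175), though it passed by DESeq2 (adjusted p = 0.0359) and by edgeR without a filter on low counts (adjusted p = 0.00528). Both genes had all 3 dKO values below all 3 WT values. The count of H2afz is uncertain in that a near-identical copy lies in transcripts of Tmcc1. In whole muscle, fewer cells of a type and less RNA per cell cannot be told apart, nor can the RNA of fibres be told from that of cells in which the Cre is not active.

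None of the genes next to the targeted genes was called. The 5 nearest tested genes on each side of H2afv and of H2afz (order from GENCODE M21, GRCm38) held 0 called of 20, against 0.459% of all tested genes. At that share, 0 in a set this small does not set the neighbours apart. The smallest adjusted p by edgeR was 0.187, for Dapp1 beside H2afz (0.44, 4.01 to 5.43 CPM), and beside H2afv it was 0.435, for Myo1g (0.59). Ppia, the neighbour of H2afv on one side, was at −0.049 and Dnajb14, a neighbour of H2afz, at 0.081.

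**Figure D1:**
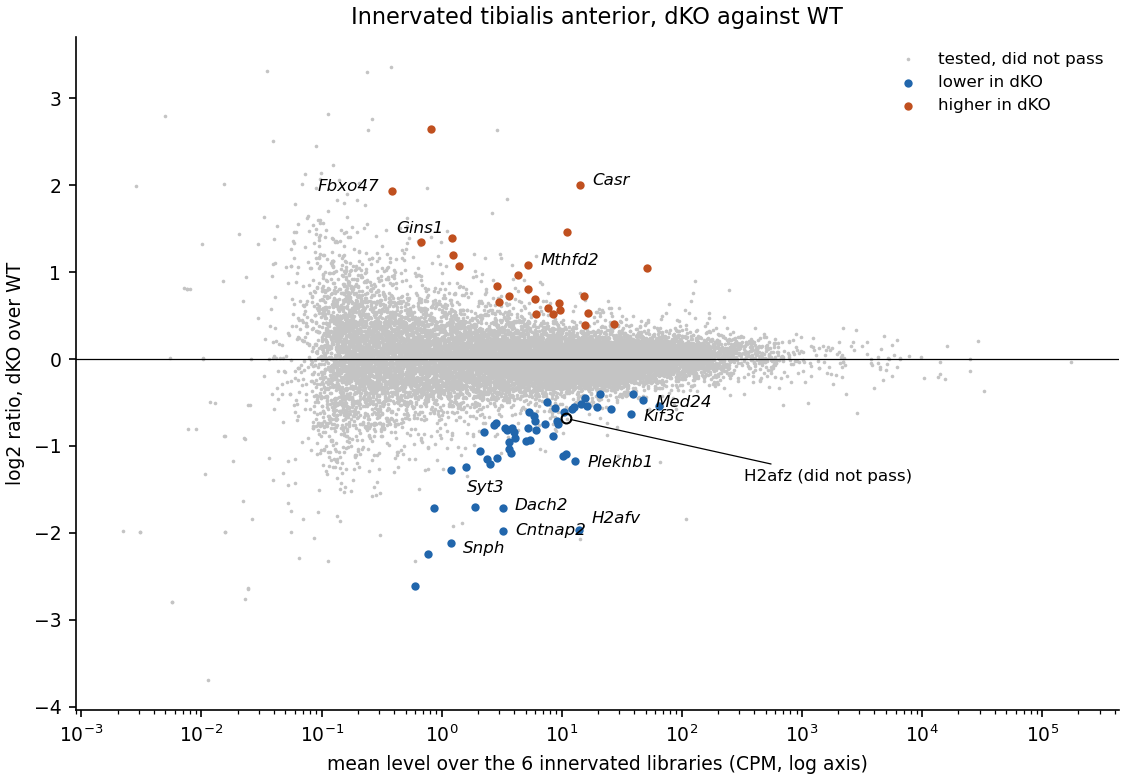
Each point is 1 of 17201 tested genes, with its mean level over the 6 innervated libraries (CPM, log axis) and its log2 ratio of dKO over WT. Genes that passed an adjusted p of 0.05 by edgeR are blue (54 lower) or orange (25 higher), and they lie at levels up to 64.7 CPM.

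The genes called were of low to middle abundance. Their median level over the 6 libraries was 5.39 CPM, against 7.43 for all tested genes, and 49 of the 79 were under 10 CPM in both groups. Not 1 of the 1140 genes at or above 100 CPM was called. The whole 95% interval lay within 2-fold of equal in 98.6% of those genes and within 1.5-fold in 91.3%. At 10 to 100 CPM the shares were 98.8% and 91.5%, with 24 of 6566 genes called, and at 1 to 10 CPM they were 91.5% and 62.6%, with 49 of 5025 called. At 0.1 to 1 CPM only 38.8% of 4144 genes had an interval within 2-fold, so most of these genes had an interval that reached a 2-fold change, and 6 were called. Over all levels 80.3% of the tested genes had an interval within 2-fold, and 3335 of the 17122 genes not called had one that reached beyond it.

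**Figure D2:**
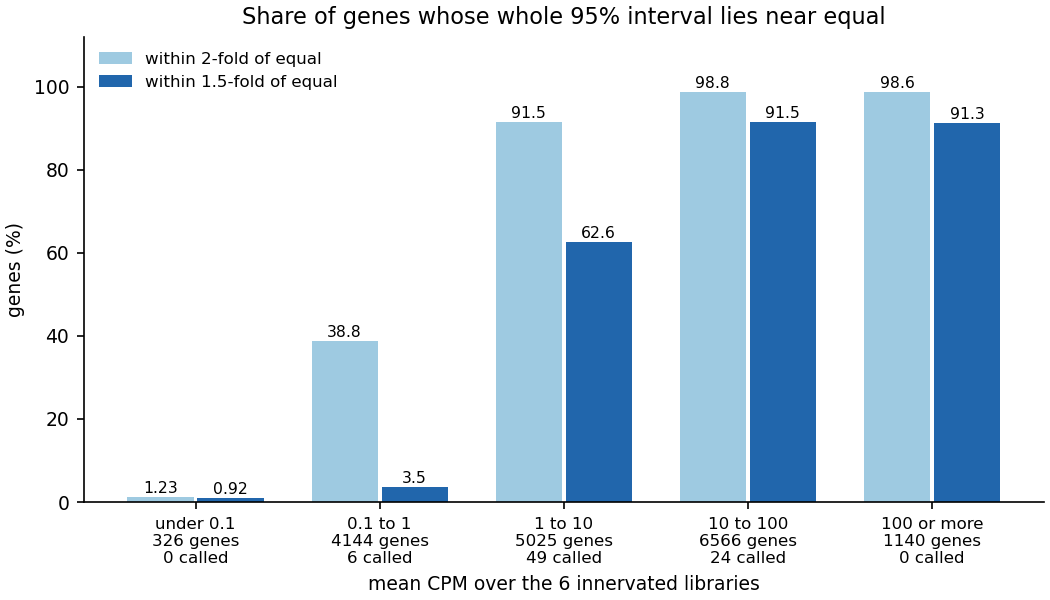
Bars give the percentage of tested genes whose whole 95% interval of the log2 ratio lay within 2-fold (light) or 1.5-fold (dark) of equal, by mean level over the 6 innervated libraries. The share within 2-fold was 98.6% at 100 CPM or more and 38.8% at 0.1 to 1 CPM.

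The size of the changes was modest in most of the 79 genes. The estimate reached 2-fold in 10 higher and 19 lower genes, the whole 95% interval lay beyond 2-fold in 11, and 19 genes differed by under 1.5-fold. The number of calls was lower with any 1 innervated library left out. It dropped to 44, 40 and 34 without WT_innervated 1, 2 or 3, and to 41, 27 and 52 without dKO_innervated 1, 2 or 3. Such a fit also has fewer libraries in a group, and these effects were not separated. In these fits 8 to 24 genes were higher and 19 to 32 lower. Through these 6 fits, 23 genes remained called, 36 lost the call when some of the libraries were left out, and 20 lost it whichever library was left out. The 23 that remained were H2afv, BC049352, Snph, Cntnap2, Dach2, Syt3, BC048355, Tle6, Plekhb1, Ctnna3, Tmem141, Hist2h2be, Prrg2, Ccs, Kif3c and Arhgef25, which fell, and Casr, Gm16793, Fbxo47, SNORA53, Snora74a, Mfsd4 and Thg1l, which rose. All 79 kept their direction in these 6 fits and under 10 other alternatives, wherever they were tested. The groups of each called gene did not overlap, so the choice of genes largely fixed this, and it is no measure of stability.

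Genes of chromatin and transcription were among those that fell, a group put together after the values were seen. Hist2h2be, a histone H2B gene, stood at 6.66, 6.54 and 6.68 CPM in WT and 3.28, 3.6 and 3.46 CPM in dKO, and fell (log2 ratio −0.94, SE 0.14, edgeR adjusted p = 0.00913). The WT values lay within 6.54 to 6.68 CPM and the dKO values near 52.0% of that level. Tle6, a relative of the Groucho corepressors, fell from 3.56 ± 0.347 to 1.53 ± 0.222 CPM (log2 ratio −1.21, SE 0.15, edgeR adjusted p = 0.00436). The Mediator subunit gene Med24 stood at 56.5, 53.8 and 56.3 CPM in WT and 39.9, 38.1 and 42 CPM in dKO, and fell (log2 ratio −0.48, SE 0.072, edgeR adjusted p = 0.00964). By CPM it is among the 5 called genes of highest level. Its call was lost without WT_innervated 3 or dKO_innervated 2 (adjusted p up to 0.069 by edgeR), and its exons are overlapped on its own strand. Smaller or less firmly placed values were those of Zfp286 (−1.28), Zfp167 (−0.81) and Zfp367 (−0.55), zinc-finger proteins, and of Mier2 (−0.60), a partner of histone deacetylases. The 4 calls were each lost without 5 or 6 of the 6 libraries, and the 3 zinc-finger genes have exons overlapped on the opposite strand.

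No gene of the machinery that handles H2A.Z passed. Of 25 genes that deposit, remove or read the variant, 0 rose and 0 fell, with a median of −0.0019 beside 0.0056 for all tested genes and a range of −0.27 to 0.43. Only 0.459% of all tested genes were called, so 0 in a list this short does not set its members apart. The 2 with the smallest unadjusted p were Meaf6, of the TIP60 complex (6.41 ± 0.59 to 8.56 ± 0.7 CPM, log2 ratio 0.42, SE 0.10, edgeR adjusted p = 0.117), and Yeats4, a reader shared by SRCAP and TIP60 (7.13 ± 0.602 to 9.64 ± 0.352 CPM, log2 ratio 0.43, SE 0.11, edgeR adjusted p = 0.14). With DESeq2 Meaf6 passed (adjusted p = 0.0215). The chaperone that removes H2A.Z, Anp32e, was at −0.11 (adjusted p = 0.535 by edgeR). Of 9 tested genes of other histone variants, 0 passed. H2afx, the variant of the damage response, was at −0.46 (edgeR adjusted p = 0.54) and the linker histone H1f0 at −0.19 (edgeR adjusted p = 0.474), both with groups that did not overlap, as 8.48% of all tested genes had in that direction. The macroH2A gene H2afy was at −0.014 and the H3.3 genes H3f3a and H3f3b at 0.065 and −0.019. Of 26 polycomb and other transcription-control genes, Tle6 was the 1 that fell and 0 rose, with a median of −0.039. Of all tested genes 0.314% fell and 0.145% rose.

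**Figure D3:**
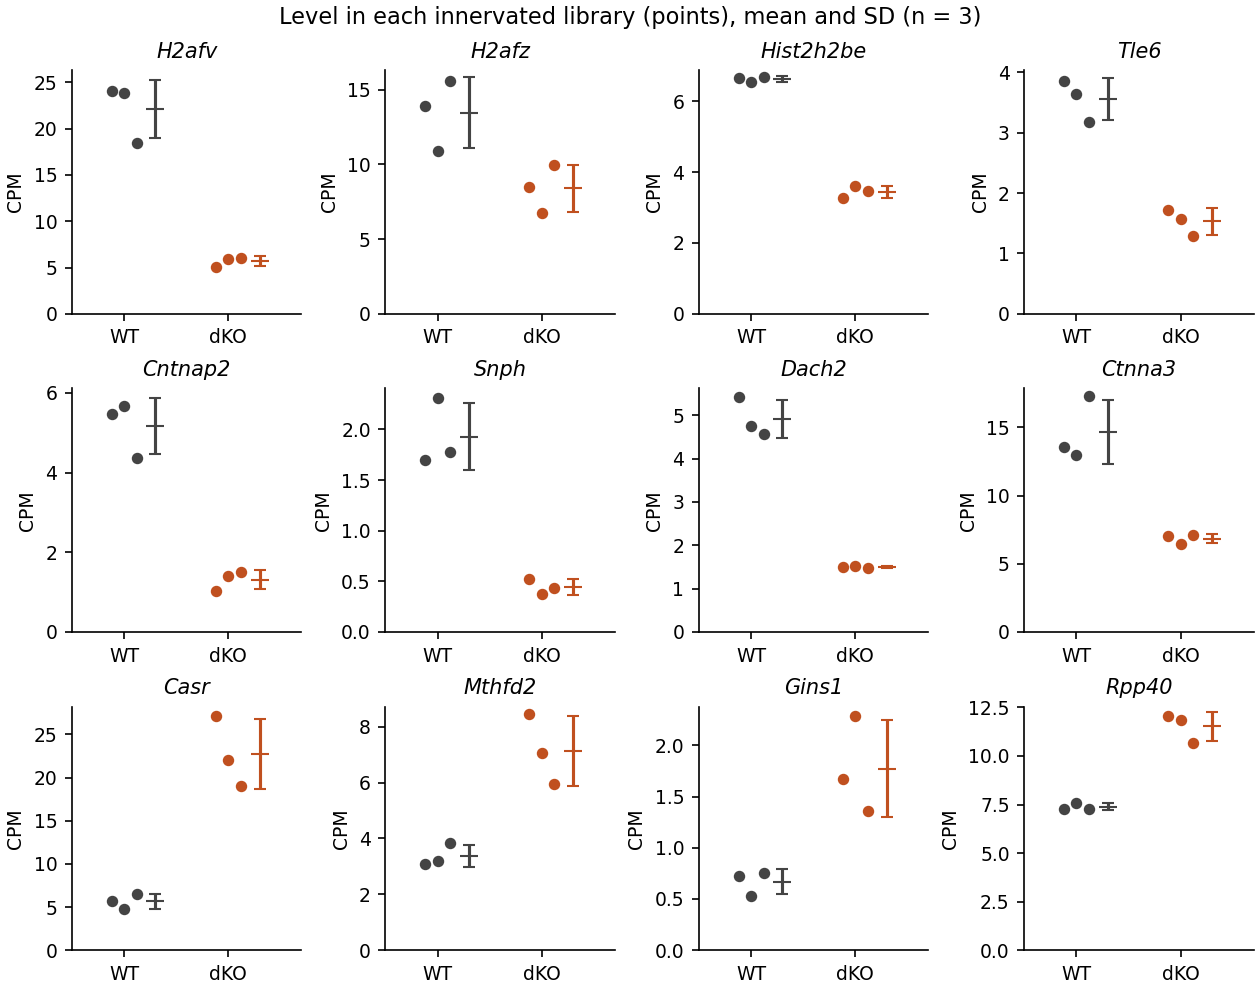
Points are the CPM of each of the 3 WT and 3 dKO innervated libraries for 12 genes, with the mean and SD beside them and each axis starting at 0. In each panel the 3 dKO values lie outside the range of the 3 WT values. H2afz did not pass the test.

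Genes better known from nerve cells were among those that fell most. Of 39 tested genes for neuronal adhesion, vesicles and axons, 3 fell and 0 rose, beside 0.314% and 0.145% of all tested genes, and the median of the list was −0.046. The list was chosen with earlier results of these data known, so the shares are no test of such genes as a group. Cntnap2, a neurexin-family adhesion protein that clusters potassium channels along myelinated axons, stood at 5.46, 5.68 and 4.37 CPM in WT and 1.04, 1.4 and 1.5 CPM in dKO, and fell (log2 ratio −1.98, SE 0.21, edgeR adjusted p = 0.00144). Snph, syntaphilin, which docks mitochondria on axonal microtubules, stood at 1.7, 2.31 and 1.78 CPM in WT and 0.526, 0.372 and 0.43 CPM in dKO, and fell (log2 ratio −2.11, SE 0.26, edgeR adjusted p = 0.00436). The calcium sensor of vesicle fusion Syt3 stood at 3.21, 2.88 and 2.66 CPM in WT and 0.586, 1.07 and 1.03 CPM in dKO, and fell (log2 ratio −1.70, SE 0.22, edgeR adjusted p = 0.00436). All 3 were at 23.1% to 30.7% of WT, and their groups lay far apart. The other 36 did not pass. Among them Vamp1, a vesicle SNARE, was at −0.36 (edgeR adjusted p = 0.07) and the vesicle protein gene Syp at −0.67 (0.141), while the synaptotagmin Syt7 was at 0.42 (0.299). The summed level of the list was 210.1 to 220.3 CPM in WT and 185 to 195 CPM in dKO.

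Markers of the nerve itself were low, and none passed. Of 10 axon markers, 7 passed the filter and 0 the test, and the neurofilament genes Nefl and Nefh were under the filter. The 7 tested markers summed to 5.69 to 6.76 CPM in WT and 5.68 to 7.65 CPM in dKO. Their median was 0.27, with a range of −0.22 to 1.46. The 2 of smallest p were Nefm (log2 ratio 1.46, SE 0.75, edgeR adjusted p = 0.512) and Snap25 (0.67, SE 0.57, 0.727). Nefm was at only 0.0324 CPM in WT and 0.09 CPM in dKO, with groups that did not overlap. Prph, peripherin, was at 1.64 CPM in WT and 1.4 CPM in dKO. Of 15 tested Schwann cell markers 0 passed, with a summed level of 109 to 116 CPM in WT and 99.3 to 127 CPM in dKO. Beside these, 0.459% of all tested genes passed, so 0 in lists this short does not set them apart.

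Further genes of membranes and excitability fell outside that list. Kcnf1, a silent subunit of potassium channels, stood at 4.8, 4.05 and 5.72 CPM in WT and 2.42, 2.44 and 2.22 CPM in dKO, and fell (log2 ratio −1.04, SE 0.18, edgeR adjusted p = 0.019), though the call was lost without WT_innervated 1 or 3 or dKO_innervated 1, 2 or 3 (adjusted p up to 0.106 by edgeR). Of 25 fibre ion channels and pumps 0 passed, beside 0.459% of all tested genes, and their median was −0.025. Cacng7, a calcium channel gamma subunit (−0.80, edgeR adjusted p = 0.0149), and Mpp2, a scaffold of the membrane guanylate kinase family (−0.84, 0.0416), fell to 57.6% and 56.0% of WT, and both calls were lost without 5 or 6 of the 6 libraries. Plekhb1, a protein with a lipid-binding PH domain, had the smallest adjusted p after H2afv. It stood at 19.8, 18.2 and 15.2 CPM in WT and 7.83, 7.9 and 7.85 CPM in dKO, a fall (log2 ratio −1.17, SE 0.11, edgeR adjusted p = 0.000696).

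Promoters from RefSeq (GRCm38.p6; 250 bases before to 50 after the start, a length of 300) were examined because H2A.Z is placed around start sites. They were matched for 12027 tested genes, among them 54 of the called, 13 higher and 41 lower. A promoter was taken as rich in CpG where the observed over expected CpG ratio was at least 0.6. By this measure 66.5% of all matched promoters were rich, against 8 of 13 (61.5%) of the genes that rose and 18 of 41 (43.9%) of those that fell. The median ratio was 0.735, 0.646 and 0.567 in the same order. The promoters of H2afv, Casr, Plekhb1 and Snph are shown, 5′ to 3′ on the strand of the gene, with CG in capitals, for a CpG-rich start and 3 poor ones among the genes that remained called. They lie at chr11:6444394-6444693 (minus strand), chr16:36562085-36562384 (minus strand), chr7:100662345-100662644 (minus strand) and chr2:151632544-151632843 (minus strand). They hold 27, 4, 6 and 8 CG, at ratios of 1.01, 0.22, 0.351 and 0.331.
H2afv: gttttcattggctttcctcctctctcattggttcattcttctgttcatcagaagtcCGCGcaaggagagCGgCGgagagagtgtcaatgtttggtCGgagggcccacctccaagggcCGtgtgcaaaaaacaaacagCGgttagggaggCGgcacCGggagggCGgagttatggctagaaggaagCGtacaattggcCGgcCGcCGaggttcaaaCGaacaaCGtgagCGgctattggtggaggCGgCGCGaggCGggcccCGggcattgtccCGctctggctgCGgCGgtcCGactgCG
Casr: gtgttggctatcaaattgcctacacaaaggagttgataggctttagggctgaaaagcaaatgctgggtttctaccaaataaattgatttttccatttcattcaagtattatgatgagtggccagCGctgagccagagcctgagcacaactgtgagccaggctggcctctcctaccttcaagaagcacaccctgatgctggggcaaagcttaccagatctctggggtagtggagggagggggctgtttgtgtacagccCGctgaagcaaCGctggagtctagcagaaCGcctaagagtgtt
Plekhb1: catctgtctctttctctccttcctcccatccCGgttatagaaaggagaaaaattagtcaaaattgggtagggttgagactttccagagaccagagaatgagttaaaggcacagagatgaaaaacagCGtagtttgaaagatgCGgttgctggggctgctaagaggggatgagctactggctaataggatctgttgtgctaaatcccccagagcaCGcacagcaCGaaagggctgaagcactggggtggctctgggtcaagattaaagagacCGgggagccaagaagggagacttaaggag
Snph: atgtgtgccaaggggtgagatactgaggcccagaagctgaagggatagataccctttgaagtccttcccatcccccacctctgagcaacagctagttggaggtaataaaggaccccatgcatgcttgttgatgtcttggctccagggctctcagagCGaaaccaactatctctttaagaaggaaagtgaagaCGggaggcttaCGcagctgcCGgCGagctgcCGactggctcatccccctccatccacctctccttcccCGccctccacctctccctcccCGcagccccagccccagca

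Short motifs were counted in the same 300 bases on both strands. TTTGAA, the core of the cell-cycle CHR element, was present in 11 of 41 promoters of genes that fell (26.8%) and 2 of 13 of those that rose, against 12.3% of all. CCAAT was present in 20 of 41 (48.8%) and 3 of 13, against 38.1%. CAGCACC, part of the RE1 site of the neuronal repressor REST, was in 0 of 41 and 1 of 13, against 7.70%, and the E2F-type GCGGGAA was in 2 of 41 and 0 of 13, against 8.02%. The MEF2 motif was in 0 of 41 and 1 of 13, against 3.12%. TATAAA was in 2 of 41 and 1 of 13, against 8.03%. Of the other 4 motifs searched, TGATGNAA was in 1 of 41 and 0 of 13, against 2.34%, CAGCTG in 5 and 2, against 15.9%, GCATGCG in 1 and 2, against 5.96%, and TGACGTC in 2 and 0, against 5.16%. Overlap between motifs was not removed. These are counts of letters in a window, with no test made of them.

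On the list for the nerve-muscle synapse and the response to denervation, 1 of 30 genes fell and 0 rose. Of all tested genes 0.314% fell and 0.145% rose, and the median of the list was −0.078. The list was chosen with earlier results of these data known, so a single call is no test of the group. The gene that fell was Dach2, a corepressor that holds down myogenin and the acetylcholine receptor genes in innervated muscle. It stood at 5.42, 4.74 and 4.57 CPM in WT and 1.49, 1.53 and 1.48 CPM in dKO, and fell (log2 ratio −1.71, SE 0.21, edgeR adjusted p = 0.00436). The 3 dKO values lay within 1.48 to 1.53 CPM, below the lowest WT value of 4.57 CPM. The genes that Dach2 is known to restrain did not pass: Myog was at −0.34 (edgeR adjusted p = 0.51), and the receptor subunits Chrnd, Chrnb1 and Chrne at −0.18, −0.23 and 0.19 (edgeR adjusted p = 0.658, 0.49 and 0.57). Ache, acetylcholinesterase, was at −0.47 (edgeR adjusted p = 0.262).

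Of the called genes that averaged 1 CPM or more over the 6 libraries, the largest rise was that of Casr, the calcium-sensing receptor, best known from the parathyroid gland. It stood at 5.67, 4.8 and 6.49 CPM in WT and 27.1, 22.1 and 19.1 CPM in dKO. Every dKO value was at least 19.1 CPM and every WT value at most 6.49 CPM, a rise (log2 ratio 2.01, SE 0.25, edgeR adjusted p = 0.00436) with a 95% interval of 1.47 to 2.55. The other 25 excitation-contraction and calcium genes did not pass, with the list at a median of −0.079. Of all tested genes 0.145% rose and 0.314% fell. The ryanodine receptor Ryr1 was at −0.19, the calcium pump Atp2a1 at −0.17 and the channel Cacna1s at −0.20 (edgeR adjusted p = 0.611, 0.657 and 0.471).

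No listed contractile or energy gene of the fibre passed. As 0.459% of all tested genes passed, 0 in lists of this length does not set their members apart. Of 16 fibre markers, 0 passed, the median was −0.11 and the range −0.36 to 0.34. Ttn was at 176408 and 172406 CPM in WT and dKO, and Myh4, the fastest myosin, at −0.36 (edgeR adjusted p = 0.5). The fibre markers together took 305780 to 379096 CPM in WT and 322334 to 325094 CPM in dKO, so the sample was fibre RNA in large part in both groups. Neither the 15 slow and cardiac-type nor the 15 fast contractile genes held a called member, nor did 24 genes of glycolysis and glycogen or 21 of the circadian clock. Oxidative phosphorylation (0 of 40) had a median of 0.12 and cytosolic ribosomal proteins (0 of 40) one of 0.20. In the latter, 22 of 40 genes had all dKO values above all WT values, which 8.59% of all tested genes had. The largest and smallest ribosomal values were 0.39 and −0.045, and the gene with the smallest p, Rps2, was at 0.32 (edgeR adjusted p = 0.104) with 10 near-identical copies. Rps2 passed with DESeq2 (adjusted p = 0.0104) and with the GC trend removed (edgeR adjusted p = 0.0403).

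Among adhesion, cytoskeleton and growth genes the changes were again single. Ctnna3, alpha-T-catenin, which anchors cadherins to actin in striated muscle, stood at 13.6, 13 and 17.3 CPM in WT and 7.03, 6.44 and 7.09 CPM in dKO, and fell (log2 ratio −1.09, SE 0.12, edgeR adjusted p = 0.00206). It was the 1 called of 25 genes of junctions and the dystrophin complex, beside 0.459% of all tested genes. A single call in such a list, chosen with earlier results of these data known, is no test of the group. Kif3c, a kinesin motor subunit, stood at 49.9, 42.1 and 44.7 CPM in WT and 29, 29.9 and 29.1 CPM in dKO, and fell (log2 ratio −0.64, SE 0.089, edgeR adjusted p = 0.00639), with exons overlapped on the opposite strand. Arhgef25, an exchange factor for small GTPases, and Dtx3, a ubiquitin ligase related to Deltex of the Notch pathway, lie next to each other on chromosome 10 at 5.645 kb, and both fell, Arhgef25 (log2 ratio −0.56, SE 0.076, edgeR adjusted p = 0.00602) and Dtx3 (log2 ratio −0.58, SE 0.09, edgeR adjusted p = 0.0123). The Dtx3 call was lost without WT_innervated 2 or 3 or dKO_innervated 1 or 2 (adjusted p up to 0.0777 by edgeR). Tiam1, an exchange factor for Rac, stood at 11.1, 10.6 and 13.1 CPM in WT and 16.6, 19.5 and 21.3 CPM in dKO, a rise (log2 ratio 0.72, SE 0.12, edgeR adjusted p = 0.0149) whose call was lost without WT_innervated 1 or 2 or dKO_innervated 2 or 3 (up to 0.0902). In the list of 25 muscle growth and atrophy genes 1 fell and 0 rose, beside 0.314% and 0.145% of all tested genes. That gene was Fbxo44, an F-box subunit of ubiquitin ligases. It stood at 5.51, 5.48 and 4.89 CPM in WT and 2.63, 2.63 and 3.18 CPM in dKO, a fall (log2 ratio −0.91, SE 0.14, edgeR adjusted p = 0.00913), and its call was lost without dKO_innervated 1 or 2 (up to 0.0664).

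**Figure D4:**
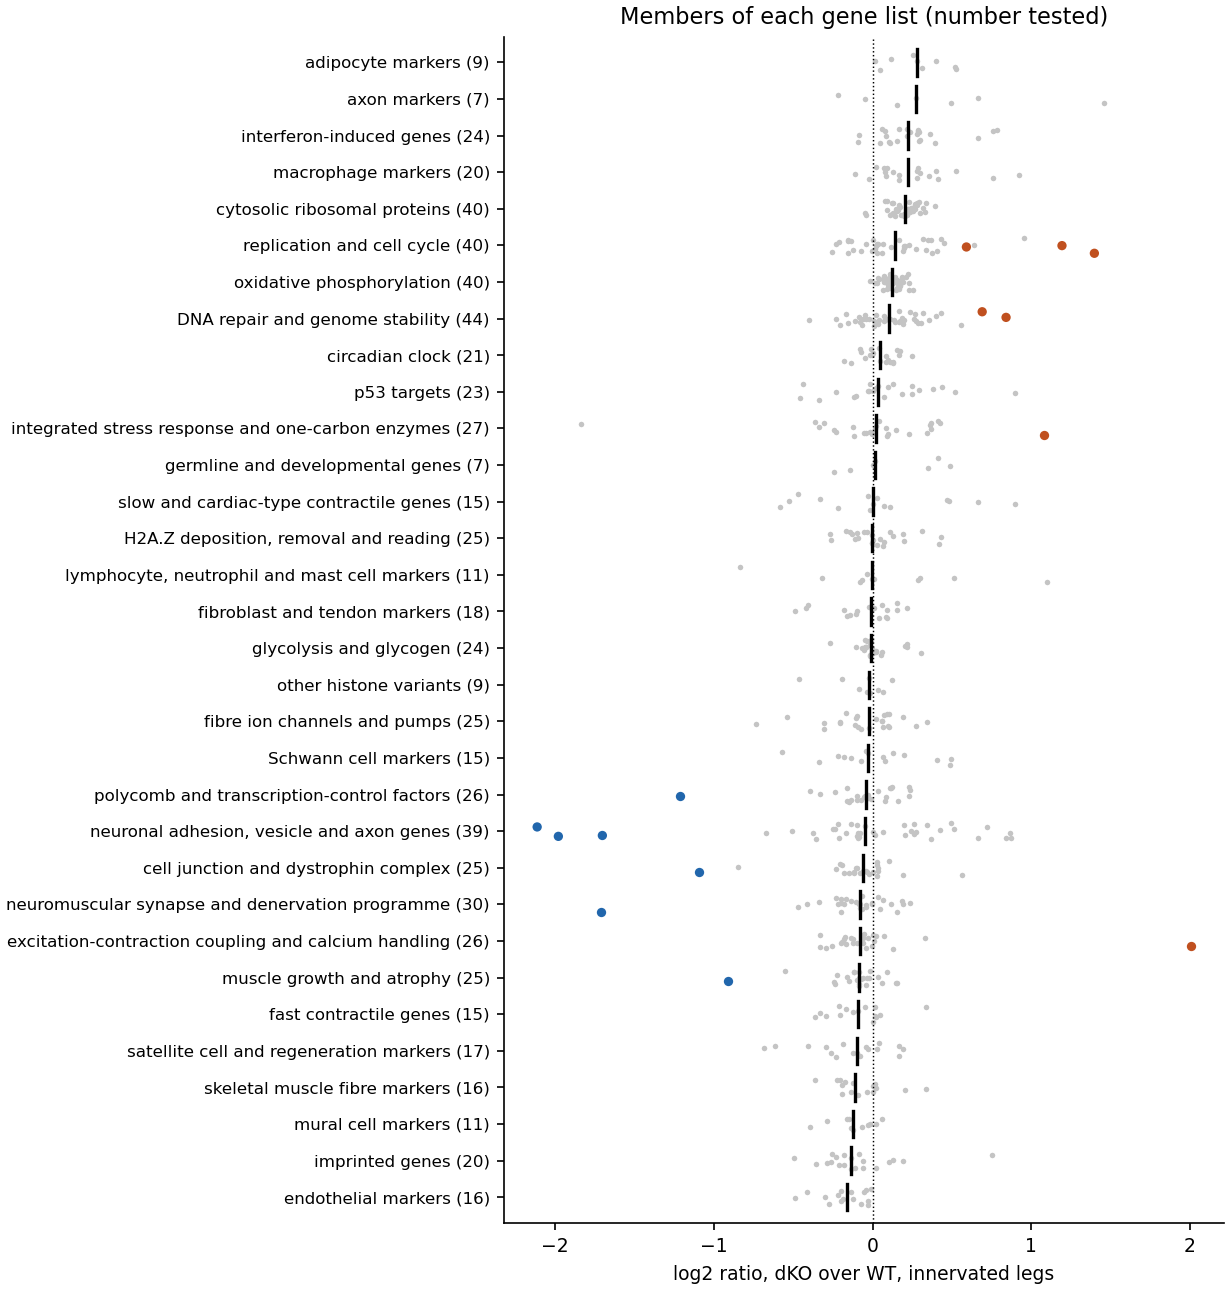
Each grey point is a tested member of 1 of 32 gene lists, placed by its log2 ratio of dKO over WT in innervated legs, with called members in blue (fell) or orange (rose). Black bars are list medians, which run from −0.16 for endothelial markers to 0.28 for adipocyte markers, and the dotted line is the median of all tested genes.

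A few genes that copy DNA rose, and genes that mend DNA were called in both directions. Of 40 replication and cell-cycle genes 3 rose and 0 fell, with a median of 0.14, and of 44 DNA repair genes 2 rose and 0 fell, with a median of 0.10, beside 0.145% of all tested genes that rose and 0.314% that fell. Both lists were chosen with earlier results of these data known, so these shares are no test of the groups. Gins1, of the GINS part of the replicative helicase, stood at 0.723, 0.531 and 0.754 CPM in WT and 1.67, 2.29 and 1.36 CPM in dKO, and rose (log2 ratio 1.40, SE 0.22, edgeR adjusted p = 0.0146). The mitotic kinesin Kif20a stood at 0.535, 0.897 and 0.833 CPM in WT and 1.59, 1.59 and 1.96 CPM in dKO, and rose (log2 ratio 1.19, SE 0.22, edgeR adjusted p = 0.0335). Both were under 1 CPM in every WT library. Pole, the catalytic subunit of DNA polymerase epsilon, stood at 6.62, 5.88 and 5.94 CPM in WT and 9.15, 9.44 and 9.23 CPM in dKO, and rose (log2 ratio 0.59, SE 0.097, edgeR adjusted p = 0.0152). Of the others Rrm2, of ribonucleotide reductase, was at 0.95 (edgeR adjusted p = 0.0628), Cdc45 at 0.43 and Pcna at 0.20 (edgeR adjusted p = 0.256 and 0.358). The repair genes that rose were Gen1, a resolvase of Holliday junctions, by 0.84 with an SE of 0.15 (edgeR adjusted p = 0.0254), and Rnaseh2b, which helps to remove ribonucleotides from DNA, from 4.61 ± 0.36 to 7.44 ± 0.483 CPM (log2 ratio 0.69, SE 0.10, edgeR adjusted p = 0.00969). In the other direction and outside the list, the repair polymerase gene Poll fell (log2 ratio −0.51, SE 0.074, edgeR adjusted p = 0.00837), as did Obfc2b, which binds single-stranded DNA (log2 ratio −0.57, SE 0.095, edgeR adjusted p = 0.0158).

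These calls on DNA genes were lost when single libraries were left out. The replication list had 0 called without WT_innervated 2 or 3, without dKO_innervated 2, or without dKO_innervated 1 and WT_denervated 2 together, and the repair list 0 without WT_innervated 2 or 3 or dKO_innervated 2. Each list had 1 called without WT_innervated 1, dKO_innervated 1 or dKO_innervated 3. Gins1 lost its call without WT_innervated 1, 2 or 3 or dKO_innervated 2 (adjusted p up to 0.0756 by edgeR), Pole without WT_innervated 2 or 3 or dKO_innervated 1, 2 or 3 (up to 0.1), Rnaseh2b without WT_innervated 2 or 3 or dKO_innervated 2 (up to 0.0664), and Kif20a and Gen1 without any 1 of the 6 (up to 0.128 and 0.139). Poll lost its call without WT_innervated 3 (0.0518) and Obfc2b without WT_innervated 1 or 2 or dKO_innervated 1, 2 or 3 (up to 0.0909). Pole, Kif20a, Rnaseh2b and Obfc2b have exons overlapped on the opposite strand. Markers of other cells that can divide are given beside these values. The 20 macrophage markers had a median of 0.22 and summed to 195 to 226 CPM in WT and 232 to 249 CPM in dKO, without overlap, and 0 of the 20 passed, the largest of the 5 markers that were higher without overlap, as 8.59% of all tested genes were, being Ccr2 at 0.76 (edgeR adjusted p = 0.341). Satellite cell and regeneration markers (0 of 17, median −0.10) summed to 2401 to 2566 CPM in WT and 2239 to 2631 CPM in dKO. The part of these cells in the values was not tested.

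RNA-processing genes and small nucleolar RNAs formed a further group of rises, put together after the values were seen. Rpp40, a protein of RNase P and RNase MRP, which cut precursors of tRNA and rRNA, stood at 7.29, 7.6 and 7.26 CPM in WT and 12.1, 11.8 and 10.7 CPM in dKO, and rose (log2 ratio 0.64, SE 0.096, edgeR adjusted p = 0.00913). Its call was lost without WT_innervated 3 or dKO_innervated 2 (up to 0.058 by edgeR), and its exons are overlapped on the opposite strand. Thg1l, which adds a guanosine to histidine tRNA, stood at 2.64, 2.71 and 2.92 CPM in WT and 4.52, 4.82 and 4.32 CPM in dKO, a rise (log2 ratio 0.73, SE 0.10, edgeR adjusted p = 0.00639). Eri1, an exonuclease that trims ribosomal and histone RNA, stood at 7.56, 7.14 and 8.54 CPM in WT and 11.2, 11.9 and 11.2 CPM in dKO, a rise (log2 ratio 0.56, SE 0.093, edgeR adjusted p = 0.0158) whose call was lost without WT_innervated 1 or 2 or dKO_innervated 1, 2 or 3 (up to 0.0916). The small nucleolar RNA SNORA53 stood at 6.03, 6.04 and 5.69 CPM in WT and 12.4, 17.5 and 19.2 CPM in dKO, and rose (log2 ratio 1.46, SE 0.19, edgeR adjusted p = 0.00511), and Snora74a stood at 37.4, 37.3 and 25.1 CPM in WT and 66.7, 73.1 and 66.3 CPM in dKO, and rose (log2 ratio 1.05, SE 0.14, edgeR adjusted p = 0.00493). SNORA66 was at 0.375 and 0.965 CPM (log2 ratio 1.34, SE 0.27, edgeR adjusted p = 0.0498), with its call lost without any 1 of the 6 libraries. Such RNAs lie within host genes, and Snora74a has a near-identical copy and an exon overlap on its own strand, so their counts are uncertain in that respect.

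In metabolism Mthfd2, the mitochondrial folate enzyme that is a target of ATF4, stood at 3.08, 3.21 and 3.84 CPM in WT and 8.44, 7.04 and 5.94 CPM in dKO, and rose (log2 ratio 1.08, SE 0.16, edgeR adjusted p = 0.00904). The call was lost without WT_innervated 1 or 2 (adjusted p up to 0.0534 by edgeR). It was the 1 that rose of 27 genes of the integrated stress response and one-carbon metabolism, and 0 fell. Of all tested genes 0.145% rose and 0.314% fell. The list had a median of 0.022 and a range of −1.84 to 1.08, and its member at −1.84 did not pass. Atf4 itself was at 0.23, and the serine-synthesis genes Psph and Psat1 at 0.42 and 0.34 (edgeR adjusted p = 0.686, 0.217 and 0.352). Ccs, which loads copper into superoxide dismutase, stood at 11.7, 11.1 and 10.9 CPM in WT and 6.46, 7 and 7.21 CPM in dKO, and fell (log2 ratio −0.71, SE 0.088, edgeR adjusted p = 0.00436). Smaller groups of enzymes fell as well: Hnmt, which inactivates histamine (−1.06), Car11, a carbonic anhydrase relative without activity (−1.15), Dera, of deoxyribose catabolism (−0.79), the lysosomal Dpp7 (−0.75) and Fuca2 (−0.56), the lipid carrier Pctp (−0.74), the glutathione transferase Gstm4 (−0.66) and the acyl-CoA synthetase Acsl6 (−0.41). Rises were seen in Gstz1, of tyrosine breakdown (0.41), Phka2, of phosphorylase kinase (0.39), B3galtl, a glucosyltransferase (0.51), and the deubiquitinase Uchl3 (0.52). Adjusted p for these 12 lay between 0.00852 and 0.0463 by edgeR, and all but Dpp7 lost the call without at least 4 of the 6 libraries. Dpp7 lost it without dKO_innervated 2 (0.0651 by edgeR). Exons of Acsl6, Gstz1 and Phka2 are overlapped on the opposite strand.

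Some called genes change strongly and have no list. BC049352 stood at 1.03, 0.916 and 1.15 CPM in WT and 0.18, 0.149 and 0.172 CPM in dKO, the largest fall of the 79 (log2 ratio −2.62, SE 0.27, edgeR adjusted p = 0.00142), and Morn4 at 1.31, 1.37 and 1.13 CPM in WT and 0.346, 0.179 and 0.275 CPM in dKO, a fall (log2 ratio −2.25, SE 0.34, edgeR adjusted p = 0.00915) that was lost without dKO_innervated 2 (0.0664). Fbxo47, an F-box gene known from meiosis, was low in WT, at 0.147, 0.147 and 0.189 CPM in WT and 0.601, 0.7 and 0.551 CPM in dKO, and rose (log2 ratio 1.93, SE 0.27, edgeR adjusted p = 0.00602). The limit that a count of 0 allows, 3 counts, was 0.0401 to 0.0549 CPM in these libraries and covers counting error only. The predicted gene Gm16793 rose (log2 ratio 2.65, SE 0.36, edgeR adjusted p = 0.0057), from 0.222 ± 0.0698 to 1.4 ± 0.116 CPM. Xlr3b, of a family of X-linked genes, was at −1.71 (1.31 to 0.401 CPM), with the call lost without any 1 of the 6 libraries (up to 0.203 by edgeR). Mfsd4, a membrane transporter, stood at 2.7, 3.15 and 2.99 CPM in WT and 6.01, 5.72 and 5.47 CPM in dKO, a rise (log2 ratio 0.96, SE 0.13, edgeR adjusted p = 0.0057). Prrg2 stood at 6.72, 7 and 7.5 CPM in WT and 3.59, 3.62 and 3.91 CPM in dKO, a fall (log2 ratio −0.93, SE 0.12, edgeR adjusted p = 0.00542). Both have exons overlapped on the opposite strand.

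Further called genes belonged to none of these groups. Those that fell include genes of microtubules and filaments, Mtap7 (−0.76), Eml2 (−0.71) and the keratin gene Krt222 (−0.80). They also include Lrp2bp (−1.13), which binds the receptor megalin, the membrane protein genes Fam189b (−1.09), Tmem141 (−0.95) and Tmem184c (−0.88), Extl2, of heparan sulphate synthesis (−0.75), and Fam65b (−0.82). Tmem141 stood at 5.19, 4.78 and 4.29 CPM in WT and 2.54, 2.13 and 2.7 CPM in dKO. Atxn1l, a partner of the repressor Capicua, was at −0.40, Wdr24, of the GATOR2 complex that senses amino acids, at −0.45, Wdr13 at −0.54, Ttc23 at −0.61, Dalrd3, of tRNA methylation, at −0.50, and the non-coding 2310050B05Rik, the called gene of highest CPM, at −0.54 from 76.8 ± 7.3 to 52.7 ± 1.07 CPM. Those that rose include Fam55c (1.07), Rwdd2b (0.66) and Ccdc90b (0.53), a relative of the regulator of the mitochondrial calcium uniporter. Of these 18 genes only Tmem141 remained called with any 1 of the 6 libraries left out. Exons of Mtap7, Lrp2bp, Ttc23, Dalrd3, 2310050B05Rik and Ccdc90b are overlapped on the opposite strand, and those of Eml2 on its own strand.

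No marker of another cell type of the muscle passed. Endothelial markers had a median of −0.16 with all 16 at or below −0.0072, 0 of 16 called, and a summed level of 906 to 988 CPM in WT and 801 to 926 CPM in dKO. Mural cell markers (0 of 11), fibroblast and tendon markers (0 of 18), adipocyte markers (0 of 9), and lymphocyte, neutrophil and mast cell markers (0 of 11) had medians of −0.13, −0.0067, 0.28 and −0.0033. Interferon-induced genes stood at 0.22 (0 of 24, summed 159 to 203 CPM in WT and 181 to 247 CPM in dKO), p53 targets at 0.034 (0 of 23), imprinted genes at −0.13 (0 of 20), and germline and developmental genes at 0.014, of which 7 of 20 passed the filter and 0 the test. Of all 33 lists 23 held no called gene. With 0.459% of all tested genes called, 0 in a list of such length does not set its genes apart.

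The called genes were spread over the genome. Of 78 placed on GENCODE M21, 16 (20.5%) had another called gene within 1000 kb, against 12.3% of 16371 tested genes with a called gene that near, and 2 (2.56%) within 100 kb, against 2.05%. Those 2 are Arhgef25 and Dtx3. Chromosome 10 held 10 called of 771 tested (1.30%) and chromosome 7 held 10 of 1211 (0.826%), while chromosome 16 held 4 of 504, all higher.

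The same genes were then read in the denervated legs, whose libraries are in the same fit and pair with the innervated ones by replicate number. There 0.285% of all tested genes were called lower and 0.0756% higher, and 7.55% were lower and 6.42% higher without overlap. Of the 54 genes that fell in innervated legs, 53 had the same sign, 51 had groups that did not overlap in that direction and 32 were called, and of the 25 that rose the numbers were 25, 20 and 3. The median log2 ratio of the genes that fell was −0.81 in innervated and −0.67 in denervated legs, and that of the genes that rose 0.81 and 0.45. The 79 genes were chosen for their size in the innervated legs, so a smaller value in other legs follows in part from the choice. As the legs pair by replicate number, differences between animals can recur in both legs. The shared sign and calls are therefore no independent support. The targeted gene H2afv is among the 54. The difference between legs was called for 0% of the tested genes, that is 0 genes with edgeR and 0 with DESeq2, with 374 at an unadjusted p below 0.05. The smallest such p among the called were those of SNORA53 (0.000249), Kcnf1 (0.00138), Gm16793 (0.00317), Tiam1 (0.00317) and SNORA66 (0.00341), none of which passed the adjustment. Kcnf1 was at −1.04 in innervated and 0.024 in denervated legs, Tiam1 at 0.72 and 0.12, and SNORA53 at 1.46 and 0.13. Beside these Cntnap2 was at −1.98 and −2.16, Dach2 at −1.71 and −1.46, and Ctnna3 at −1.09 and −1.24.

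**Figure D5:**
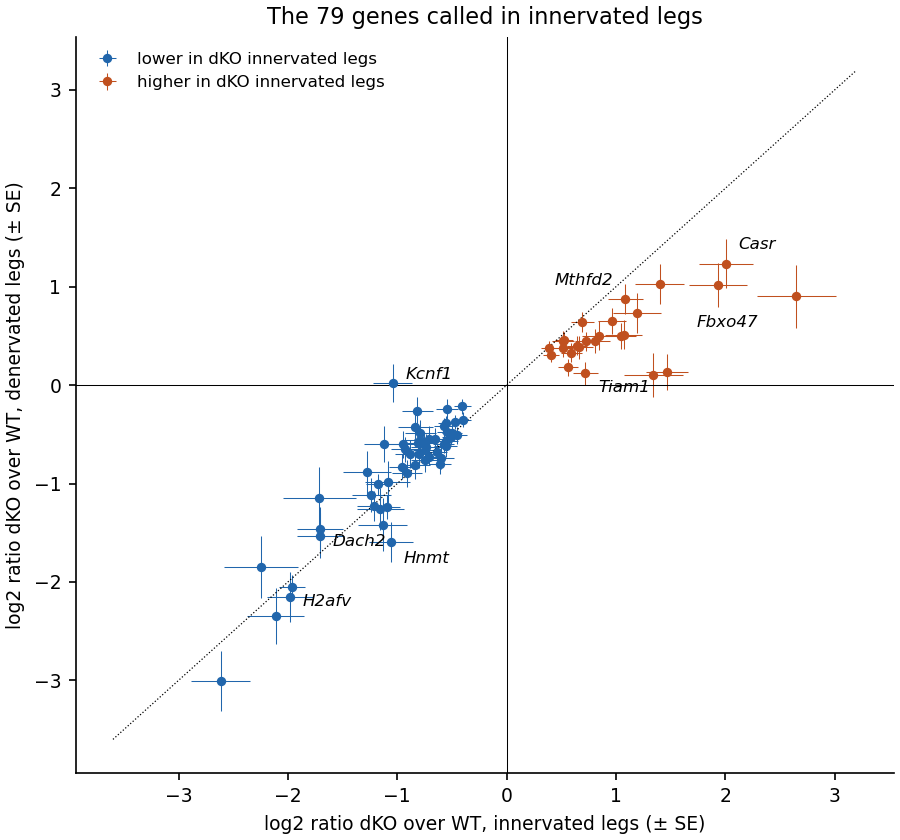
The 79 genes called in innervated legs, by their log2 ratio of dKO over WT in innervated (horizontal) and denervated legs (vertical), with bars of 1 SE and a dotted line of equal values. All but 1 gene, Kcnf1, keep their sign, and all 25 orange genes lie below the line.

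The authors' deposited table lists 266 of 16004 genes with an adjusted p under 0.05 for this comparison, 110 higher and 156 lower in dKO. All 79 genes called here are among them in the authors' deposited table, each with the same sign. That table comes from the same libraries, so the shared sign is no separate support.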

How the data were processed

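RNA of 12 libraries of mouse tibialis anterior was analysed, 3 in each of 4 groups taken from the labels. The libraries were stranded and made after removal of ribosomal RNA, per the labels' protocols. TopHat2 2.0.14, Bowtie, HTSeq 0.6.1, bcl2fastq 2.17.1.14 and the build mm9 are named, without order, per the submitters' processing notes. Annotation, filters and the counting's strand setting were not given in the sources used here. Raw counts of reads, deposited by the authors for each gene, were used in all tests, per the file headers. Their normalized counts, a signal, and the same per kb of gene length are also deposited. The deposited log2 fold changes are the authors' own, WT over dKO, and were turned in sign for the totals given. The deposited p-values, adjusted and not, are the authors' own as well.

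Genes were kept with edgeR's filter by group (17201, which hold 99.975% of counts), scaled by TMM and fitted as 4 group means over all 12 libraries with edgeR's quasi-likelihood test (R 4.3.3, edgeR 4.0.16, limma 3.58.1), with a threshold of 0.05 after Benjamini-Hochberg adjustment. The script was tested on simulated data. DESeq2 1.42.0, limma-voom, other filters and scalings, and leaving out libraries were alternatives. The p-values measure the spread between samples, which the labels call biological replicates. The main fit took all 12 libraries as independent and left out the pairing of legs described below. With the innervated libraries only, 46 genes were called, and 60 with limma-voom and the animal as a block.

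The members, the 33 gene lists (744 entries) and the rule for named genes were chosen with earlier results of these data known. Named are the targeted genes, called genes with a proper symbol and at least 0.5 CPM in the higher group, called list members or else the 2 of smallest p, the 5 tested neighbours on each side of the targeted genes, and sets of 5 by level and by interaction p. Beyond these, genes next to the threshold or known for a role were named after their values were seen. Some genes that the rule names are given only in the counts, and some are not reported here. Near-identical copies were sought with BLAST 2.17.0 (98% identity over 50% of length) among GENCODE M21 transcripts (GRCm38, not the authors' build). Exon overlaps come from the same annotation, and 20 of the 79 called genes had one on the other strand.

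The pairing of legs by replicate number was checked on deviations from group means. In WT the correlation was 0.271 to 0.459 between legs of 1 number and −0.376 to 0.0817 between legs of different numbers. In dKO it was 0.197 to 0.508 and −0.389 to 0.0884, so the legs pair. With the animal as a block the difference between legs was called for 0 genes.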

Additional observations from a re-analysis of the deposited data

How the results depend on the processing

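The number of genes called between dKO and WT in innervated legs, 79 (25 higher, 54 lower), depended on the method. It was 264 (111 higher, 153 lower) with DESeq2 and its own filter, 240 (100 and 140) with edgeR without a filter, and 46 (17 and 29) with the innervated libraries only. It was 50 (21 and 29) without dKO_innervated 1 and WT_denervated 2 together, whose signal leaned least to GC-rich genes (correlation −0.229 and −0.306, against −0.112 to 0.150 in the others), and 25 (9 and 16) when tested against a 1.2-fold change. Removing each library's GC trend gave 103 (38 and 65), and with the replicate block in addition 115 (43 and 72). The cause of the differences between these alternatives was not tested. Leaving out a library also leaves fewer in its group, and this was not separated from the part of that library. Leaving out 1 of the 12 libraries gave 27 to 113 calls, with 8 to 40 higher and 19 to 73 lower. For WT_innervated 1, 2 and 3 the calls were 44 (14 higher, 30 lower), 40 (8 and 32) and 34 (13 and 21), and for dKO_innervated 1, 2 and 3 41 (16 and 25), 27 (8 and 19) and 52 (24 and 28). Counts of 77 with RLE factors, 94 at a minimum of 1 CPM and 60 with limma-voom and the animal as a block stayed within 1.5 times.

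Same-numbered WT and dKO innervated libraries correlated at −0.206 to 0.404, against −0.301 to 0.470 for different numbers, so the numbers do not pair genotypes, and a replicate block called 82 genes, 65 of them shared with the 79. H2afz passed with DESeq2 (−0.69, adjusted p = 0.0359), with edgeR without a filter (−0.69, 0.00528), with the replicate block (−0.68, 0.0397) and with that and the GC trend removed (−0.71, 0.0292). Over single libraries left out it was −0.82 to −0.55, and H2afv −2.08 to −1.89, called throughout. The difference between legs was called for 2 genes with edgeR without a filter and 0 otherwise, also with any 1 library left out. Of the 79 genes, 19 were called with each of the 6 innervated libraries left out and under 10 other alternatives, all at the same sign. The test against a 1.2-fold change and the fits without a denervated library were not among these. Over the single genes the text names, 2566 values under an alternative were on the same side of the threshold, 470 were no longer past it, 12 were newly past it, and none was reversed in sign, while 23 values of genes past it in neither fit moved by more than 1 SE. For the 79 called genes the sign was largely fixed by the choice, as their groups did not overlap.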
